A study of Mus musculus with 8 samples.

Results

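The phagocyte NADPH oxidase and the Rac GTPases that switch it on were followed through 6 genes, Cybb, Cyba, Ncf1, Ncf4, Rac1 and Rac2. Their members were every array probe set (a group of short probes read as 1 value) annotated to 1 of these symbols, which gave 13 probe sets among 45037 tested, or 6 genes among 18193. RNA came from Cd11b+ myeloid cells sorted from bone marrow of 8-week-old mice of mixed background (FVB + C57BL6), with 4 arrays of control mice (genotype E2F1-/-2+/+3f/f) and 4 of experimental mice (Mxcre;E2F1-/-2-/-3f/f). Both groups were thus E2f1 null and carried floxed E2f3, and both received pIpC, a synthetic double-stranded RNA that induces interferon, as 5 injections of 250 µg, the last of them 24 h before the tissue was taken. Experimental mice also lacked E2f2 and carried Cre under the interferon-responsive Mx promoter, which recombines floxed alleles in many cell types. Cre and the E2f genotype cannot be told apart here, since no control carried Cre. The labels do not say that each sample was a separate animal, so the p-values rest on sample-to-sample spread that may in part be technical.

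The oxidase makes superoxide, the first product of the oxidative burst with which neutrophils and macrophages kill microbes. Cybb encodes its catalytic membrane subunit and Cyba the smaller partner that stabilises it, and together they form the flavocytochrome of the plasma membrane and granules. Ncf1 and Ncf4 encode cytosolic subunits: on activation Ncf1 is phosphorylated and docks on Cyba, while Ncf4 binds a phosphoinositide of the phagosome. A GTP-bound Rac joins the complex last, and the same small GTPases drive actin assembly during migration and phagocytosis. Rac2 is made mainly in blood cells and Rac1 in most tissues. Inherited loss of oxidase subunits causes chronic granulomatous disease, in which phagocytes take up microbes but fail to kill them.

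None of the 13 probe sets passed an adjusted p of 0.05 in limma. Levels below are log2 values, and every difference is experimental minus control. Of the 13 differences 10 lay below 0, and their median was -0.16. Cybb was the gene whose brightest probe set differed least between the groups, by 0.004, and Rac2 held the smallest unadjusted p-values, with its 2 probe sets differing in opposite directions, by -0.24 and 0.50.

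E2F proteins act by binding promoters, so the starts of the genes were read for the E2F site, and also for the core of the site of PU.1, the myeloid transcription factor encoded by Spi1. RefSeq promoter windows (GRCm38.p6; 300 bases, from 250 before to 50 after the gene start) were at hand for 3 of the 6 genes. The stretches below run 5′ to 3′ on the minus strand, on which all 3 genes lie, and hold the last 100 bases before the start and the first 30 after it. Capitals mark the PU.1 core, searched as GAGGAA on both strands (TTCCTC on the other).
Cyba, chr8:122432911-122433040: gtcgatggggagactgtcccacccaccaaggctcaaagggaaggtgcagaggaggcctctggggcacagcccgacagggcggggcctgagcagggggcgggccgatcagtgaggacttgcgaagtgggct
Cybb, chrX:9469295-9469424: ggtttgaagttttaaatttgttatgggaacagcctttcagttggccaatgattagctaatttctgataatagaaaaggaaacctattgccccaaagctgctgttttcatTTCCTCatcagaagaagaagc
Ncf1, chr5:134229596-134229725: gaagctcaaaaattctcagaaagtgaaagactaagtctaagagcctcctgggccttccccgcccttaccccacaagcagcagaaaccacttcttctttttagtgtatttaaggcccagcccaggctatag

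The E2F site was searched on both strands in 4 spellings, TTTCCCGC, TTTCGCGC, TTTGCCGC and TTTGGCGC, and was found in 0 of the 3 windows and in 2.26% of 32851 windows of the same length. The PU.1 core stood in 1 of the 3 windows, that of Cybb, 10 bases after the start on the strand opposite to the gene, and in 28.3% of all windows. A match describes letters and is not a measured site, and no match says only that these letters are not in these windows. Spi1 itself read 11.37 ± 0.20 in control and 11.34 ± 0.18 in experimental arrays (SD, n = 4 each; limma adjusted p = 0.936).

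Probe sets differ in how well they bind, so their levels are not ranked against one another as amounts of RNA. Of the 13 probe sets 11 had a mean over 11, with single values between 11.18 and 13.36, where array medians were 5.01 to 5.04 and array maxima 14.36 to 14.54. The oxidase and Rac probes therefore lay in the upper part of the range. Itgam, which encodes the sorted antigen Cd11b, read 11.58 ± 0.07 in control and 11.54 ± 0.27 in experimental arrays (SD, n = 4; limma adjusted p = 0.911). Of the targeted genes, E2f2 was lower at 1455790_at by 0.66 (7.92 ± 0.19 against 7.26 ± 0.21, limma adjusted p = 0.0351), its other probe set differed by -0.55 (0.107), and E2f3 differed by 0.29 at 1434564_at (0.201) and by 0.11 at 1427462_at (0.657). The E2f1 probe set 1417878_at gave 6.86 ± 0.16 in control and 7.44 ± 0.54 in experimental arrays, though every mouse was labelled E2F1-/- (SD, n = 4; difference 0.58, limma adjusted p = 0.236), and the other E2f1 probe sets differed by 0.48 (0.345) and 0.24 (0.318). Which part of each gene these probes read was not analysed here.

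**Figure D1:**
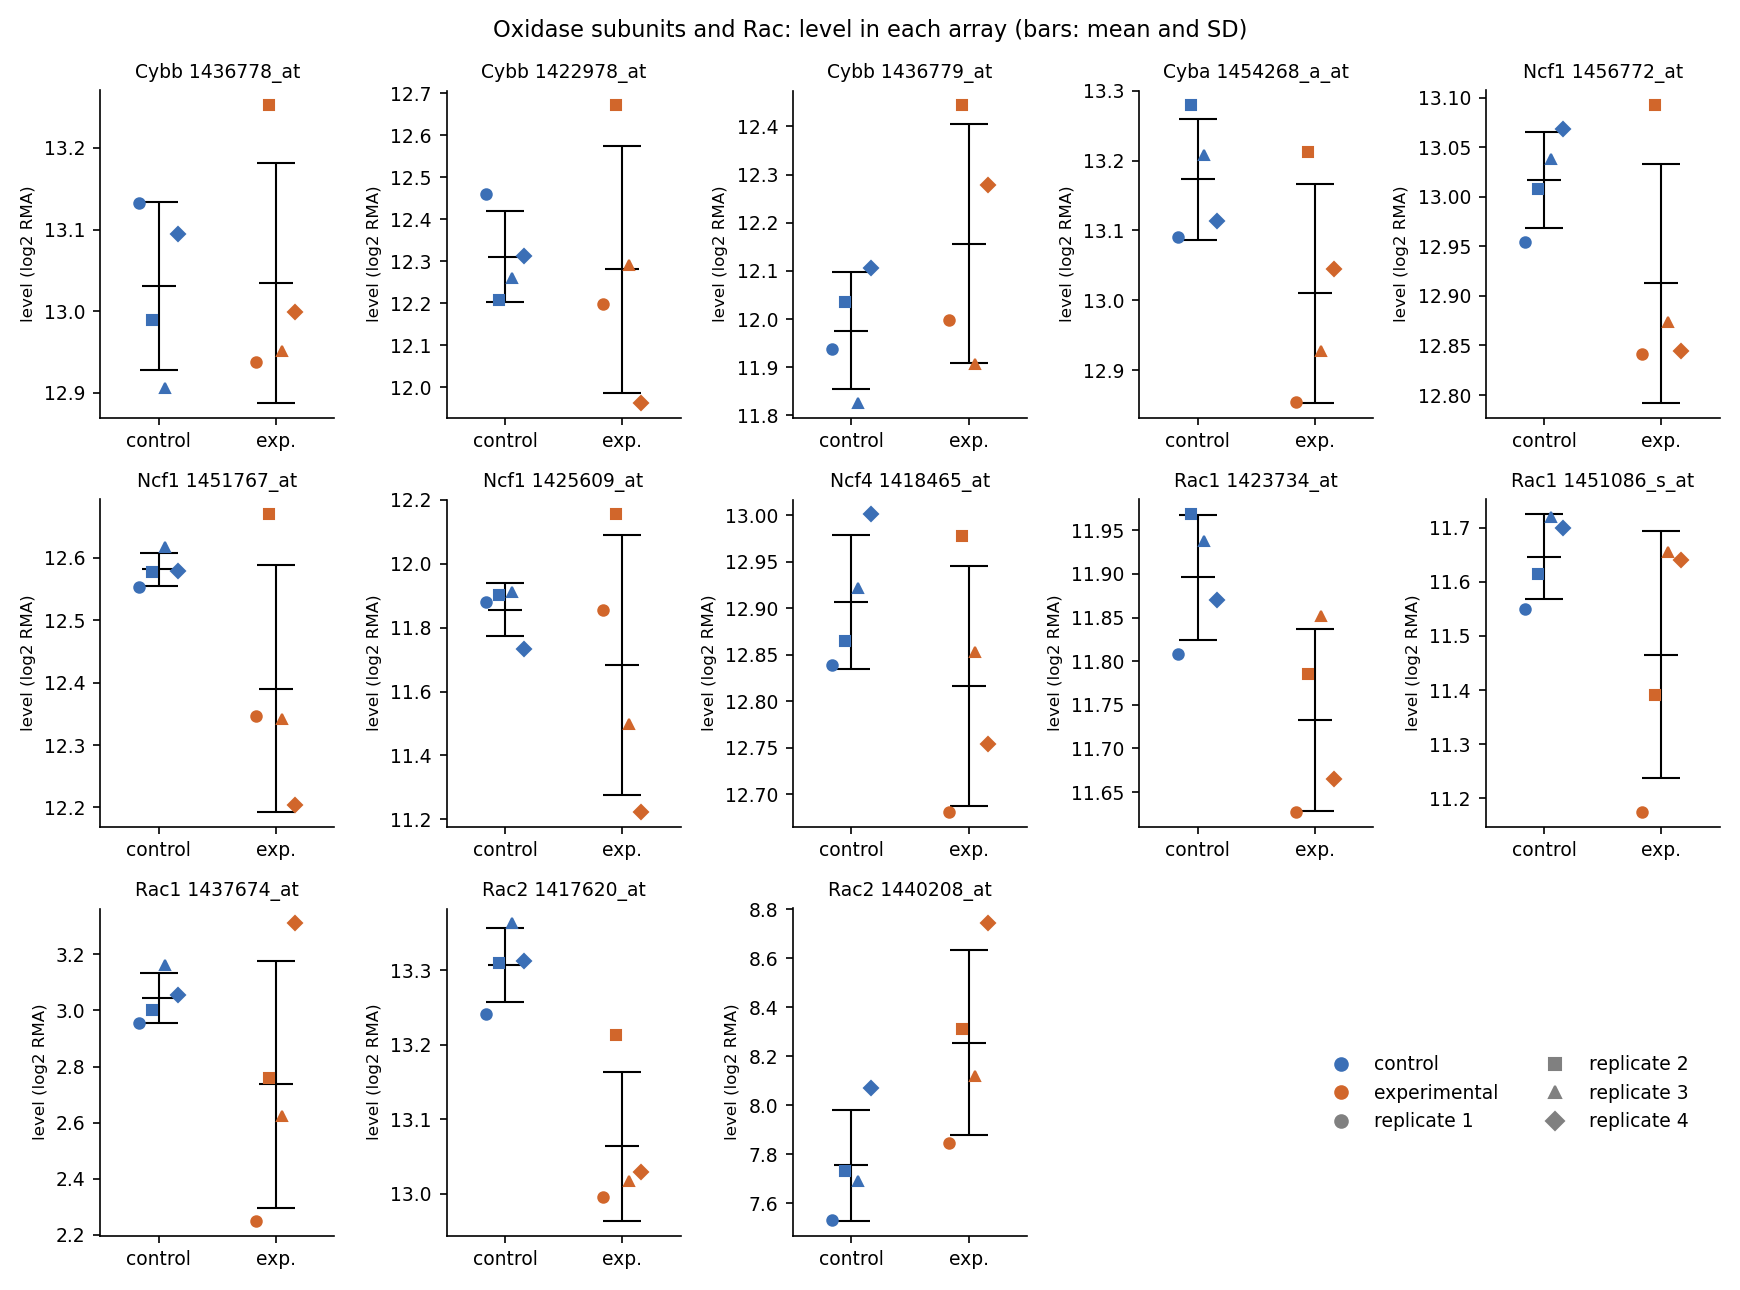
Log2 RMA level of each of the 13 probe sets in each array, control in blue and experimental in orange, with marker shape for the replicate number and bars for mean and SD over 4 arrays; each panel has its own vertical range, so heights cannot be compared between panels. Rac2 at 1417620_at is the panel in which no experimental array reaches the lowest control array, and experimental array 2 lies above the other 3 experimental arrays in 9 of the 12 panels with a mean of at least 6.

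The catalytic subunit Cybb was read by 3 probe sets. At 1436778_at, control arrays 1 to 4 read 13.13, 12.99, 12.91 and 13.09, and experimental arrays 1 to 4 read 12.94, 13.25, 12.95 and 12.999. The groups overlapped almost wholly, with experimental array 2 the highest of all 8 and control array 3 the lowest. Means were 13.03 ± 0.10 and 13.04 ± 0.15 (SD, n = 4), a difference of 0.004 ± 0.10 (SE, limma adjusted p = 0.988). On the linear scale the 95% interval ran from 85.5% to 118% of control, so the values are compatible with a change of either sign within that range.

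The other Cybb probe sets bracketed 0. At 1422978_at, which cites the Cybb transcript of RefSeq, control arrays read 12.46, 12.21, 12.26 and 12.31 and experimental arrays 12.20, 12.67, 12.29 and 11.96. Here the experimental arrays held both the highest and the lowest value of the 8, and the difference was -0.03 ± 0.14 (SE, limma adjusted p = 0.946). At 1436779_at, control arrays read 11.94, 12.03, 11.83 and 12.11 and experimental arrays 12.00, 12.44, 11.91 and 12.28. Each experimental array was above the control array of its number, yet the groups overlapped and the difference of 0.18 ± 0.13 (SE) did not pass (limma adjusted p = 0.537). Of the 3 probe sets of Cybb, 1 was below 0 and 2 were above.

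Cyba, the partner that holds the flavocytochrome together, was read by 1454268_a_at alone. Control arrays read 13.09, 13.28, 13.21 and 13.11, and experimental arrays 12.85, 13.21, 12.93 and 13.04. All 4 experimental arrays lay below the control array of their number, and 1 of them, array 2, lay within the control range. The means of 13.17 ± 0.09 and 13.01 ± 0.16 (SD, n = 4) differed by -0.16 ± 0.10 (SE, limma adjusted p = 0.466), or 89.3% of control with a 95% interval of 76.2% to 105%.

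Whether the 2 chains of the flavocytochrome changed unequally was asked within arrays, as Cybb (1436778_at) minus Cyba. This log2 difference was 0.04, -0.29, -0.30 and -0.02 in control arrays and 0.08, 0.04, 0.02 and -0.05 in experimental arrays. Experimental arrays were closely grouped, array 1 above every control and the other 3 within the control range, and the shift of 0.17 did not pass (two-sided exact permutation p = 0.200, adjusted over 3 such pairs 0.471; the smallest p possible with 4 against 4 arrays is 0.0286).

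Ncf1, the organiser that carries the cytosolic subunits to the membrane, was read by 3 probe sets, all with a mean below control. At 1456772_at, control arrays read 12.95, 13.01, 13.04 and 13.07 and experimental arrays 12.84, 13.09, 12.87 and 12.84. Experimental arrays 1, 3 and 4 lay below all controls and array 2 lay above all of them. The difference was -0.10 ± 0.09 (SE, limma adjusted p = 0.615), or 93.0% of control with a 95% interval of 80.8% to 107%.

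Experimental array 2 was also the highest of all arrays at the other Ncf1 probe sets. At 1451767_at, control arrays read 12.55, 12.58, 12.62 and 12.58, a spread of only 0.03 (SD), and experimental arrays 12.35, 12.67, 12.34 and 12.20. The difference was -0.19 ± 0.11 (SE, limma adjusted p = 0.413, and 0.122 without experimental array 2). At 1425609_at, control arrays read 11.88, 11.90, 11.91 and 11.73 and experimental arrays 11.85, 12.15, 11.50 and 11.22. The experimental arrays of this probe set spread over the whole control range and beyond both of its ends, and the difference was -0.17 ± 0.18 (SE, limma adjusted p = 0.680).

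Ncf4, the subunit that ties the oxidase to phagosomal lipid, was read by 1418465_at. Control arrays read 12.84, 12.87, 12.92 and 13.001, and experimental arrays 12.68, 12.98, 12.85 and 12.75. The groups overlapped through experimental arrays 2 and 3. Means of 12.91 ± 0.07 and 12.82 ± 0.13 (SD, n = 4) differed by -0.09 ± 0.09 (SE, limma adjusted p = 0.686), or 93.9% of control with a 95% interval of 81.1% to 109%. Ncf1 (1456772_at) minus Ncf4 within arrays was 0.11 ± 0.03 in control and 0.10 ± 0.06 in experimental arrays (SD, n = 4), a shift of -0.01 (two-sided exact permutation p = 0.629, adjusted over the 3 pairs 0.629).

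Rac1, the GTPase shared with most tissues, was read by 3 probe sets. At 1423734_at, control arrays read 11.81, 11.97, 11.94 and 11.87 and experimental arrays 11.63, 11.79, 11.85 and 11.67. All 4 experimental arrays lay below the control mean, and array 3 above the lowest control. The means of 11.90 ± 0.07 and 11.73 ± 0.10 (SD, n = 4) differed by -0.16 ± 0.09 (SE, limma adjusted p = 0.397; two-sided exact permutation p = 0.0571), or 89.3% of control with a 95% interval of 77.7% to 103%.

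A second Rac1 probe set, 1451086_s_at, whose suffix marks probes that can match more than 1 transcript, cites the same sequence entry. Its control arrays read 11.55, 11.61, 11.72 and 11.70, and its experimental arrays 11.18, 11.39, 11.66 and 11.64. Experimental arrays 1 and 2 lay under every control while arrays 3 and 4 lay among them, and the difference was -0.18 ± 0.12 (SE, limma adjusted p = 0.497). The third, 1437674_at, read 2.95 to 3.16 in control and 2.25 to 3.31 in experimental arrays, under the median of every array. Its difference of -0.31 ± 0.19 (SE, limma adjusted p = 0.461) is that of a dim probe set and says little about Rac1.

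Rac2, the Rac of blood cells, had the only member probe set whose groups did not overlap. At 1417620_at, which cites the RefSeq transcript of Rac2, control arrays read 13.24, 13.31, 13.36 and 13.31 and experimental arrays 12.996, 13.21, 13.02 and 13.03. Every experimental array lay below every control array, with array 2 closest to them. The means of 13.31 ± 0.05 and 13.06 ± 0.10 (SD, n = 4) differed by -0.24 ± 0.09 (SE, 95% interval -0.44 to -0.05), or 84.5% of control with a 95% interval of 73.8% to 96.7%. Adjusted over all probe sets this did not pass (limma p = 0.0192, adjusted 0.186), and the two-sided exact permutation p was 0.0286, the smallest possible, or 0.248 adjusted over the 13 probe sets. Over all probe sets, 6.15% had non-overlapping groups with lower experimental values, and over the 988 probe sets with a mean of at least 11, a limit chosen after the data were seen, 9.62% did.

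The second Rac2 probe set went the other way. At 1440208_at, control arrays read 7.53, 7.73, 7.69 and 8.07 and experimental arrays 7.84, 8.31, 8.12 and 8.74. In each of the 4 replicate numbers the experimental array was the higher, while over all arrays the groups overlapped. The means of 7.75 ± 0.23 and 8.25 ± 0.38 (SD, n = 4) differed by 0.50 ± 0.19 (SE), or 141% of control with a 95% interval of 106% to 189% (limma p = 0.0248, adjusted 0.210; two-sided exact permutation p = 0.0571). With the replicate number as a block the SE was 0.10 and the adjusted p 0.0343, which passed, in a fit that called 5.06% of all probe sets. This was the only call of a member in any of the alternatives, whose adjusted p for this probe set ran from 0.0343 to 0.401. Over all probe sets, 4.64% had non-overlapping groups with higher experimental values, and 1440208_at was not among them.

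The 2 Rac2 probe sets cite different sequence entries, and where 1440208_at lies against the Rac2 transcript was not analysed here. Set against each other within arrays (1417620_at minus 1440208_at), they gave 5.71, 5.58, 5.67 and 5.24 in control and 5.15, 4.90, 4.90 and 4.29 in experimental arrays. The ranges did not overlap, and the mean shift was -0.74. This comparison was made after the opposite signs were seen and has no test. Rac2 (1417620_at) minus Rac1 (1423734_at) was 1.41 ± 0.05 in control and 1.33 ± 0.11 in experimental arrays (SD, n = 4), a shift of -0.08 (two-sided exact permutation p = 0.314, adjusted over the 3 pairs 0.471). The direction of this shift depended on the probe sets, since with the mean of each gene's probe sets it was 0.35 (permutation, adjusted p = 0.0857). That mean takes in the dim Rac1 1437674_at and also Rac2 1440208_at, so it is not an equal alternative.

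**Figure D2:**
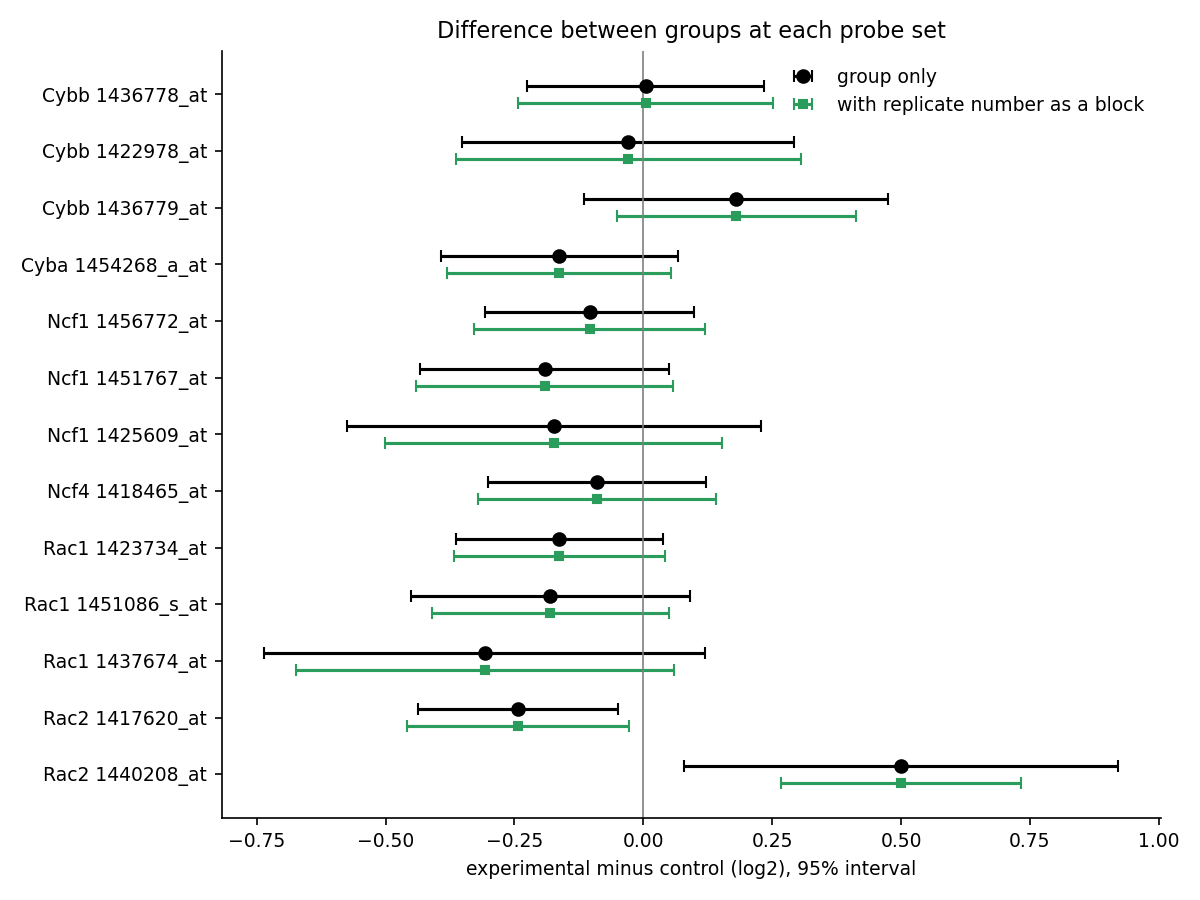
Difference between groups (experimental minus control, log2) of each probe set with its 95% interval, from the fit on group alone (black circles) and with the replicate number as a block (green squares). Both Rac2 intervals leave out 0 before adjustment for all probe sets, 1 on each side, and the interval of 1440208_at narrows to 0.27 to 0.73 with the block.

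Counted together, the members had 0 calls of 13 in limma, 2 at an unadjusted p under 0.05 (both Rac2), and 1 unadjusted and 0 adjusted in the exact permutation test. Over all probe sets limma called 2.58% (1.55% lower and 1.03% higher in experimental arrays), and 17.0% had an unadjusted p under 0.05. Among the 988 probe sets with a mean of at least 11 it called 3.54%. A count of 0 of 13 is thus close to what the background share gives. Below 0 lay 10 of 13 member probe sets (76.9%, median -0.16), against 49.4% of all probe sets (median 0.003) and 51.9% of the 988 brighter ones (median -0.01). By brightest probe set, 5 of the 6 genes lay below 0, with a median of -0.13, against 47.1% of all genes with a median of 0.01. These are descriptions without a test, and several of the probe sets read the same RNA.

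Several of the genes were high or low in the same arrays. The median deviation of the 6 genes from their means over all 8 arrays, each at its brightest probe set, was -0.003, 0.08, 0.10 and 0.08 in control arrays 1 to 4 and -0.18, 0.12, -0.09 and -0.11 in experimental arrays 1 to 4. Experimental array 1 was the lowest of the 8 at 5 of the 6 genes, all but Cybb. Experimental array 2 was the highest of the 8 at 6 of the 12 probe sets with a mean of at least 6. By Xist and a Y-linked gene it was also the only male among the 4 experimental samples, where controls 1 and 3 were male. With sex as a block limma called 0 of the 13 members and 1.47% of all probe sets, and what sex adds to these values was not tested otherwise. At Cyba, Ncf1 and Rac2, the other 3 experimental arrays lay below every control array.

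**Figure D3:**
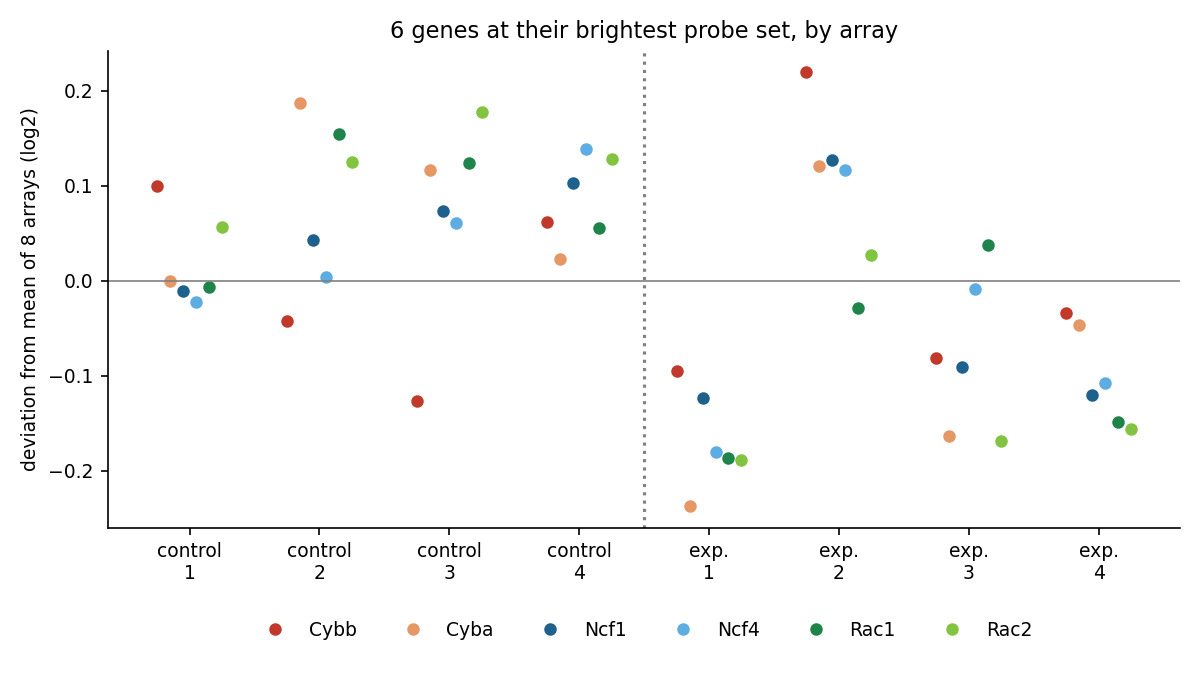
Deviation of each of the 6 genes at its brightest probe set from its own mean over the 8 arrays (log2), by array, with the dotted line between the groups. Experimental array 1 has all 6 genes below their means and experimental array 2 has 5 of the 6 above.

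Values of other kinds also differed among the arrays, not all in the order seen for the members. The log2 signal of beta-actin's 3′ control probes over its 5′ ones, a sign of RNA length, was 0.27 to 0.32 in control and 0.34 to 0.54 in experimental arrays, lowest among the experimental arrays in array 2. The same ratio for Gapdh overlapped, at -0.14 to -0.09 in control and -0.16 to 0.03 in experimental arrays. The mean of 9 neutrophil markers was 13.39 to 13.51 in control and 13.10 to 13.35 in experimental arrays, with all 9 below 0 and 1 past the threshold. Csf3r (-0.65, the 1 that passed) and Cxcr2 (-0.43) differed most. S100a8, S100a9, Camp, Ltf and Ngp had group means of 14.20 to 14.49, near the array maxima of 14.36 to 14.54, and differed by -0.13 to -0.06. The mean of 9 monocyte markers was 9.81 to 9.99 against 8.87 to 10.32, with experimental array 2 at the low end. B cell markers (9, of which 4 were called lower) read 6.89 to 7.90 against 6.03 to 6.63, dendritic markers (6, of which 2 were called lower) 7.86 to 8.03 against 6.52 to 7.53, and megakaryocyte markers (5, of which 2 were called lower) 6.69 to 7.32 against 6.04 to 6.18. Promyelocyte markers (5, with 1 called higher) read 11.48 to 12.59 against 12.16 to 12.87, and eosinophil, basophil or mast markers (6, with 2 called higher) 7.47 to 7.87 against 7.58 to 8.24. T cell (4), NK cell (4) and erythroid (5) markers had overlapping ranges and 0 calls in the fit on group alone, from which all these counts come. That fit called 3.47% of all genes, 354 lower and 278 higher of 18193. With the replicate number as a block, limma called 6.18% of all genes. Among the markers, those that then passed newly included Nkg7 (NK cell, adjusted p = 0.0343) and Alas2 (erythroid, 0.0342), both higher. They also included Ctsg (promyelocyte, 0.0321), higher, and Ebf1 (B cell, 0.0124), lower. The part of RNA quality and of these cells in the member values was not tested, and in bulk RNA a smaller share of cells and less RNA per cell cannot be told apart.

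The sample codes in the labels came in 2 styles, a digit before a letter for replicates 1 and 2 and a letter before a digit for 3 and 4, each holding both groups. For Rac2 the sign held in both: -0.17 and -0.31 at 1417620_at, and 0.45 and 0.55 at 1440208_at, for replicates 1 and 2 and for 3 and 4. Cyba (-0.15 and -0.18) and Rac1 at 1423734_at (-0.18 and -0.15) were also alike. Ncf1 at 1425609_at was not, with 0.11 and -0.46. The test of that difference gave -0.57 ± 0.22 (SE), with a limma adjusted p = 0.594 and an unadjusted value of 0.0290. Over the 13 probe sets, 8 lay below 0 in replicates 1 and 2 and 11 in replicates 3 and 4. The interaction of group and style passed for 0 of 13 after adjustment, where limma called 0.0111% of all probe sets. Before adjustment it passed for 1 of 13. The unadjusted share over all probe sets is not given, so that count has no background beside it. With style as a block, limma called 0 of 13 members and 5.73% of all probe sets.

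**Figure D4:**
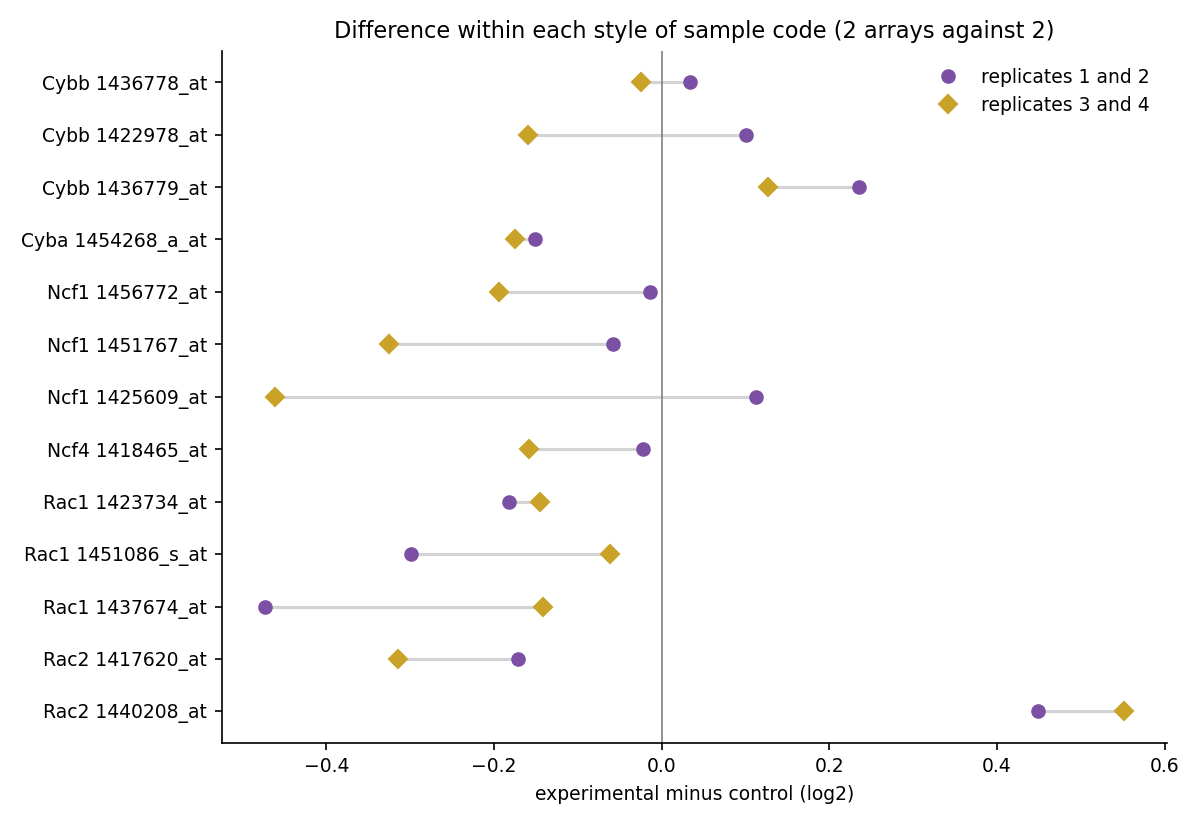
Difference between groups (experimental minus control, log2) of each probe set within replicates 1 and 2 (purple circles) and within replicates 3 and 4 (yellow diamonds), 2 arrays against 2 each. Of the 13 probe sets, Cybb 1436778_at, Cybb 1422978_at and Ncf1 1425609_at lie on opposite sides of 0.

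The genes with the most alike profiles over the 8 arrays were sought by Pearson r among 10663 genes with a mean above the median. They are a description with no test, since the r includes the difference between the groups. For Cybb they were Ints13 (r = 0.978), Plk5 (0.976) and Tank (0.914), and for Cyba Tcta (0.970), Spsb2 (0.963) and Ppil2 (0.963). Ncf1 was most like Npepps (0.959), Brd9 (0.953) and Panct2 (0.950), and Ncf4 most like Itm2b (0.924), Rbms1 (0.923) and Zfp142 (0.921). The nearest profiles of the GTPases were Plekhf2 (0.984), B3galt6 (0.976) and Tmem168 (0.966) for Rac1, and Capza1 (0.990), Eaf1 (0.986) and Zkscan6 (0.981) for Rac2. Capza1 encodes an actin capping subunit, and it differed by -0.22 (limma adjusted p = 0.220), close to Rac2 at 1417620_at. None of these 18 genes passed the threshold.

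The rest of the pathway was followed through 5 lists, each gene at its brightest probe set. Of 119 listed genes 100 were measured, and 3 passed the threshold higher and 2 lower in experimental arrays, with a median difference of -0.05. Limma called 3.47% of all genes by brightest probe set, and 18.9% had an unadjusted p under 0.05, as did 25 of the 100. Among genes with a mean of at least 6 that share was 25.6%, with 18 of 90 pathway genes. With the replicate number as a block 5 of the 100 passed higher and 4 lower, in a fit that called 6.18% of all genes. The genes that passed with the block alone, named here after their values were seen, were Racgap1 (-0.72, adjusted p = 0.104 without and 0.0300 with the block) and Iqgap1 (-0.45, 0.141 and 0.0385) of the Rac activators, inhibitors and effectors, Me2 (0.46, 0.155 and 0.0406) of NADPH supply, and Txn2 (0.55, 0.168 and 0.0467) of the genes that handle superoxide and peroxide. Of the 5 calls without the block, 3 lay among the genes that handle superoxide and peroxide, and whether that list differed from the others was not tested.

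Beside the members, 8 of 13 oxidase relatives (other catalytic subunits, accessory subunits and channels) were measured and 0 passed in limma, 2 having an unadjusted p under 0.05, with a median of -0.06. Rap1a, a GTPase found with the flavocytochrome, read 11.44 in control and 11.31 in experimental arrays, and Hvcn1, the proton channel that balances the charge the oxidase moves, 10.04 and 9.94. Of 30 measured Rac activators, inhibitors and effectors (34 listed) 0 passed in limma, and 2 (Racgap1 and Iqgap1) with the replicate block; 3 had an unadjusted p under 0.05 without it, and the median was -0.13. These unadjusted counts were 25% of the relatives and 10% of the activators, inhibitors and effectors. They stand beside 18.9% of all genes and 25.6% of genes with a mean of at least 6. The brightest were Arhgdib, the inhibitor that holds Rac2 in the cytosol of blood cells, at 13.72 and 13.52 (-0.19, limma adjusted p = 0.308), and Coro1a, an actin-binding protein of leukocytes, at 13.33 and 13.13 (-0.20, 0.297). Both differences were near that of Rac2 at 1417620_at, and neither passed.

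Among 22 measured upstream kinases and lipid enzymes (28 listed) 1 passed. Prkca, a protein kinase C of the family that phosphorylates Ncf1, fell by 0.52 (SE 0.11), from 6.45 ± 0.15 to 5.93 ± 0.13 (SD, n = 4; limma adjusted p = 0.0386). It did not pass when any 1 of the 8 arrays was left out (0.0512 to 0.105), with a difference of -0.57 to -0.45. Over all probe sets such fits called 395 to 1744, against 1162 with all 8 arrays. The list's median was -0.13, and 6 of the 22 (27.3%) had an unadjusted limma p under 0.05. That share was 18.9% over all genes and 25.6% over genes with a mean of at least 6. Among 15 measured genes of NADPH supply (16 listed) 1 passed: Taldo1, an enzyme of the pentose phosphate pathway, fell by 0.48 (SE 0.10), from 12.54 ± 0.12 to 12.06 ± 0.12 (limma adjusted p = 0.0401). It held without experimental array 2 (0.0418) and not without any other single array (0.0587 to 0.123). The list's median was -0.05, and 4 of the 15 (26.7%) had an unadjusted limma p under 0.05, beside the same shares.

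Of 25 measured genes that handle superoxide and peroxide (28 listed) 3 passed higher and 0 lower, where limma called 3.47% of all genes. Of the 25 differences 18 lay above 0 and 7 below (28%), where 47.1% of all genes lay below 0. An unadjusted limma p under 0.05 was found for 10 of the 25 (40%), against 18.9% of all genes. Over genes with a mean of at least 6 that share was 25.6%. Gclm, the modifier subunit of the enzyme that starts glutathione synthesis, rose by 0.71 ± 0.12 (SE), from 8.88 ± 0.24 to 9.59 ± 0.05 (SD, n = 4; limma adjusted p = 0.0191), and passed without any single array except control array 2 (0.0545) or experimental array 1 (0.0511). Nqo1, a quinone reductase induced with the antioxidant genes, rose by 0.81 ± 0.15 (SE), from 5.21 ± 0.22 to 6.02 ± 0.26 (limma adjusted p = 0.0280). It did not pass without control array 1, 2 or 3 or experimental array 1 or 4 (0.0680 to 0.0917). Its mean of 5.61 over the arrays was under the filter of a mean of at least 6, where array medians were 5.01 to 5.04. Epx, the peroxidase of eosinophil granules and also 1 of the eosinophil markers above, rose by 0.91 ± 0.12 (SE), from 6.07 ± 0.21 to 6.98 ± 0.09 (adjusted p = 0.00672), and passed without each array in turn. The median of this list was 0.27, and its mean level per array was 8.88 to 8.996 in control and 9.08 to 9.29 in experimental arrays, without overlap. The means per array of the neutrophil, B cell, dendritic and megakaryocyte markers did not overlap either, and were lower in experimental arrays.

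**Figure D5:**
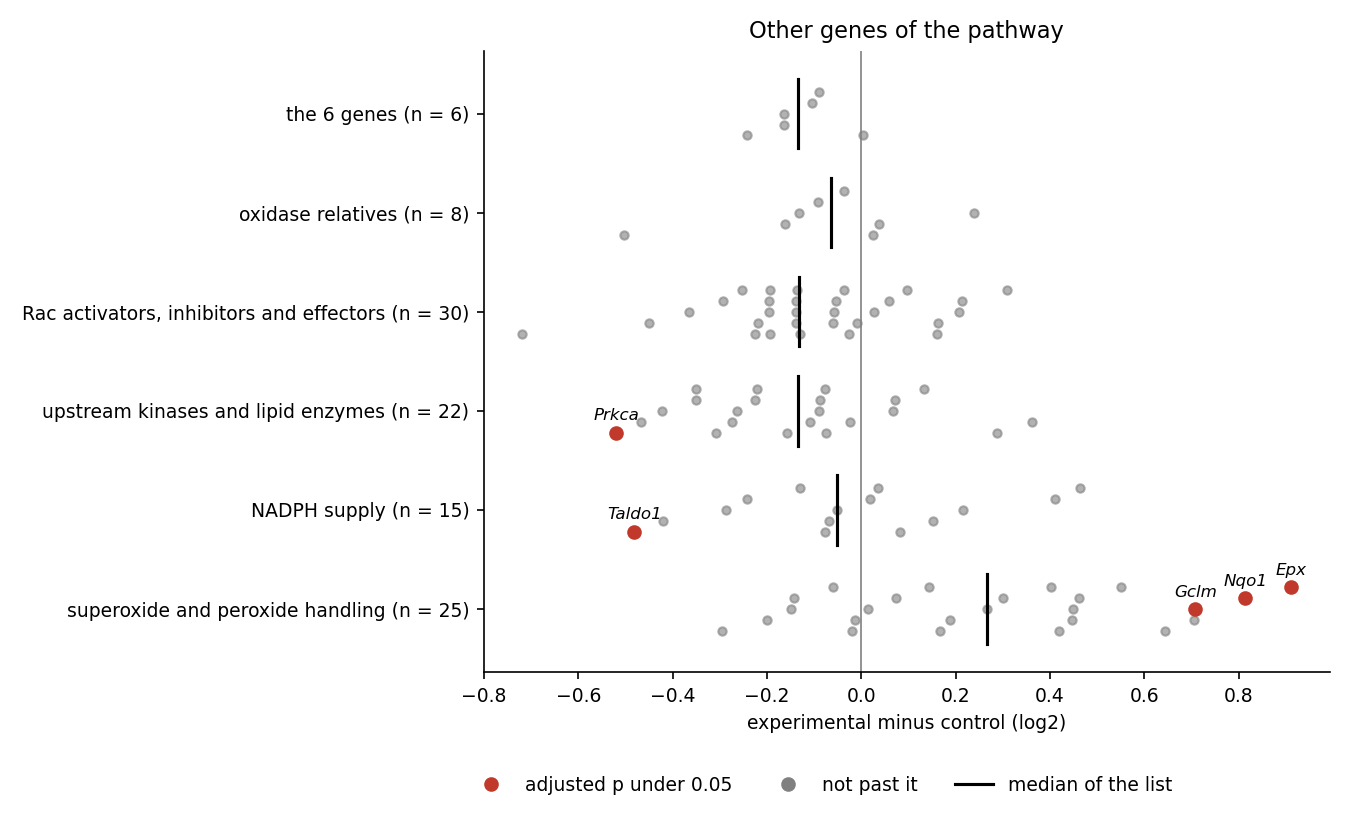
Difference between groups (experimental minus control, log2) of the 6 genes and of the measured genes of each of the 5 lists, each gene at its brightest probe set, with red points past an adjusted p of 0.05 and black lines for each list's median. The 6 genes lie between -0.24 and 0.004 with no red point, and the 3 red points of the lowest list, Gclm, Nqo1 and Epx, lie to the right of 0.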

How the data were processed

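RNA of Cd11b+ bone marrow cells was measured on 8 Affymetrix mouse arrays, 4 per group. The deposited values are log2 signals per probe set, made by the authors with RMA (background correction, quantile normalization, probe summary) per the submitters' processing notes, which give no version; if 1 run covered all 8 arrays is not stated in the labels. Quantile normalization makes array medians alike and hides a shift of all genes. Of 45101 probe sets, 64 controls were left out. All 13 member probe sets matched RefSeq (GRCm38.p6) by gene identifier, and genes were named from the platform annotation. A gene was taken at the probe set with the highest mean.

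Differences were fitted with limma 3.58.1 in R 4.3.3 (defaults, with group as the only factor), adjusted by Benjamini-Hochberg over 45037 probe sets, with a threshold of 0.05. The fit was tested on simulated data. Percentages of control are 2 raised to the difference and its 95% interval. Single values used an exact permutation test. Same-numbered arrays of the groups deviated together (each pair's correlation lay between 0.20 and 0.26). Correlations of differently numbered arrays are not given, so these values do not show that the number is what the arrays share. A fit with the number as a block is given beside the unpaired one where it changes a call of a member or pathway gene, and for some markers. The number of arrays limits the precision. Alternatives were other scalings, filters, variance settings, array weights, blocks, gene summaries and leaving out arrays.

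The genes named are every member probe set, from each list up to 4 genes with the smallest p past the threshold or else the 2 brightest, and the 3 most alike profiles of each member. The members and lists were chosen with earlier results of these data known. Sequences are RefSeq's. Another list of related genes is not reported here.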

Additional observations from a re-analysis of the deposited data

Results flagged for a closer look

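Of 26 sets of 4 arrays (13 probe sets in 2 groups), 3 held an array whose gap to its neighbour was over Dixon's 95% limit for 4 values, as a share of the whole range; chance gives about 1 in 20. Experimental array 2 stood above the other experimental arrays at Ncf1 1456772_at (13.092, others 12.841 to 12.874) and at Rac2 1417620_at (13.212, others 12.996 to 13.029). Control array 4 stood below the other controls at Ncf1 1425609_at (11.733, others 11.880 to 11.910).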

How the results depend on the processing

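The count of members past the threshold was 0 of 13 in every alternative except the replicate block, where it was 1 (Rac2 1440208_at, adjusted p = 0.0343). The block changed no other call of a member. Leaving out each array gave 0 in all 8 fits. Of 245 single member values under alternatives, 11 changed sign, all of them not past the threshold, and 1 passed newly. The added check with 1 value per gene (mean of its probe sets, or the most variable one), chosen after seeing the data, also called 0 members. Rac2 1417620_at kept its sign in 19 of 19 alternatives, with adjusted p from 0.105 to 0.591. The shift of Rac2 minus Rac1 became 0.345 with the mean of each gene's probe sets. For these within-array shifts, a permutation within replicate numbers cannot go below 0.125 and is no test.

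The count of other pathway genes past the threshold was 5. It was 9 with the replicate block, 10 with code style as a block, 3 with sex (read from Xist and a Y-linked gene) as a block, and 0 in limma within each code style (2 arrays against 2), where 13 and 27 of 100 had an unadjusted p under 0.05, against 16.3% and 18.8% of all genes. Leaving out each array gave 1 to 7: it was 1 without control array 2 or experimental array 1, 2 without control array 1 or 3 or experimental array 4, 3 without control array 4, 4 without experimental array 3 and 7 without experimental array 2. Over all probe sets, limma without 1 array called 395 to 1744, against 1162 with every array. The sex block ended the calls of Nqo1 (adjusted p = 0.0561) and Taldo1 (0.0726), and the trended, robust variance that of Prkca (0.0563). The replicate block ended none of these 5 calls. The cause was not tested. Rac1 1437674_at lay under the median of every array, and its differences say little.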
